A study of Mus musculus with 11 samples.

Results

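Voltage-gated and potassium ion channel genes were examined in adventitia of the mouse abdominal aorta, the connective tissue sheath around the vessel. The set holds every probe set whose platform annotation gives a single gene symbol starting with Kcn or Cacn, or Scn followed by a number and the letter a or b, with Kcnk3 left out. It comprised 93 of the 12393 genes named by a single symbol, read by 134 of 22626 probe sets. Adventitia was read on 11 Affymetrix arrays, all from male mice aged 78 weeks on normal chow. ATLO adventitia (4 arrays) came from B6.129P2-Apoe<tm1Unc>/J mice, which lack apolipoprotein E, from inside the atherosclerotic lesion area, and held artery tertiary lymphoid organs (ATLO), the lymphocyte aggregates of diseased arteries. Outside-lesion adventitia (4 arrays) came from the same strain away from the lesion area; the series' design text calls this group mice without lesions. Wild-type adventitia (3 arrays) came from C57BL mice, and its titles carry the letters PNS, which no label explains. Laser-cut sections (200 of 10 micrometres) were pooled for each Apoe-deficient array, and the aorta had been taken out together with lymph nodes, fat and connective tissue. RNA of the Apoe-deficient samples was amplified for 68 h and that of the wild-type samples for 24 h after another extraction, so genotype and RNA preparation cannot be told apart in comparisons with wild type.

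Ion channels are membrane proteins whose pore opens for particular ions. Voltage-gated sodium and calcium channels carry the inward currents of action potentials, transmitter release and muscle contraction, and potassium channels bring the membrane back towards rest and set its resting voltage. In the vessel wall they are known for setting smooth muscle tone, in the perivascular nerves for conducting impulses, and in lymphocytes and macrophages for sustaining the driving force for calcium entry. Most pores work with auxiliary subunits that change their gating or their transport to the membrane.

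Signals are linear intensities scaled by the authors to a common level on every array, with array medians between 152.3 and 191.7. Whether replicate arrays stem from different mice is not stated in the labels, and p-values therefore measure the variation among these arrays alone, part of which can be technical. Apoe lay between 45.9 and 179.7 on the 8 Apoe-deficient arrays and between 11970 and 13160 on the wild-type arrays, which matches every genotype label. In whole tissue, fewer cells of a type and less RNA per cell cannot be told apart. Smooth muscle, adipocyte, fibroblast, endothelial and macrophage markers gave signal in all 3 groups. Neuron markers differed widely between arrays of one group. The summed signal of 20 neuron markers was 7387, 3550, 9386 and 11380 on ATLO arrays 1 to 4, 963.9, 1414, 3599 and 16610 on the outside-lesion arrays, and 40710, 1799 and 6471 on the wild-type arrays. Outside-lesion array 4 and wild-type array 1 therefore stood apart in nerve content, and some results that rest on them are given with and without these arrays.

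Most channel genes gave dim signals. The mean over all arrays, taken at the brightest probe set of each gene, ran from 2.77 to 626.7 with a median of 52.3, against a median of 185 over all probe sets of the array. Testing required a signal above the array's own 40th percentile on 3 or more arrays, a filter passed by 33 of 134 channel probe sets (24.6%) and 66.2% of all probe sets. All 11 arrays were at or below the floor of 35.1, to which low signals were raised, for 21 channel probe sets (15.7%, against 5.98% overall). By genes, 29 of 93 were tested at their brightest probe set and 64 were not. The brightest members were the ATP-sensitive inward rectifier pore Kcnj8 (626.7), the axonal voltage-gated pore Kcna1 (516.3), the auxiliary subunit Kcne4 (452) and the calcium-activated pore Kcnn4 (424.8). No gene of the calcium channel gamma family (8 genes) or the alpha2delta family (3 genes) was tested. Signals of different probe sets also depend on their probes, so this order is a description of the array readings.

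**Figure D1:**
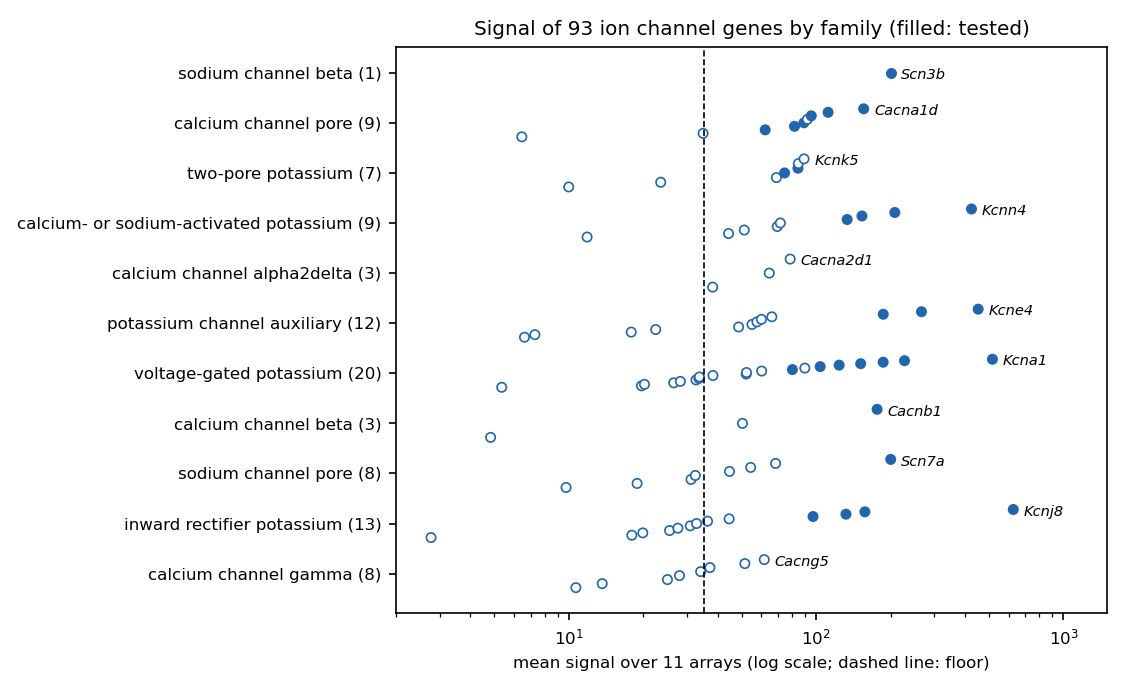
Mean signal over 11 arrays (x axis, log scale) of each of 93 ion channel genes at its brightest probe set, by family (y axis, number of genes in brackets). Filled points were tested, open points were too dim to be tested, the dashed line is the floor of 35.1, and the brightest gene of each family is named; most genes lie left of 100, with Kcnj8 at 626.7 the brightest.

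ATLO and outside-lesion adventitia share genotype and preparation. Between them, 9 channel probe sets were called by limma with Benjamini-Hochberg adjustment over all 14988 tested, 8 higher and 1 lower in ATLO. This is 6.72% of the 134, against 21.1% of all probe sets on the array (11.9% higher and 9.23% lower). Of the 33 tested it is 27.3%, against 31.9% of all tested. ATLO against wild type called 11, with 7 higher and 4 lower (8.21% of the 134, against 17.7%, or 8.84% higher and 8.89% lower; 33.3% of those tested, against 26.8%). Outside-lesion against wild type called 2, both lower (1.49%, against 2.16%, or 1.14% higher and 1.02% lower; 6.06% of those tested, against 3.26%, or 1.72% higher and 1.54% lower). Over the whole set the channel shares were below the background in all 3 comparisons, and over those tested they were below it in the first and above it in the others; the shares were not tested against the background. Over all probe sets, 56.3%, 49.9% and 52.8% of calls in these comparisons were higher as deposited and 44.1%, 56.0% and 87.3% with equal array medians. The 3 comparisons share arrays. In genes, 12 of 93 were called in at least 1 comparison. Over the whole array, counted by probe set and not by gene, 6150 of 22626 were. Among probe sets called higher in ATLO, those of Cacna1s, Cacna1h and Kcnk1 and the dimmer one of Kcnn4 passed the filter on ATLO arrays alone. The shares of those tested are therefore partly set by the filter.

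**Figure D2:**
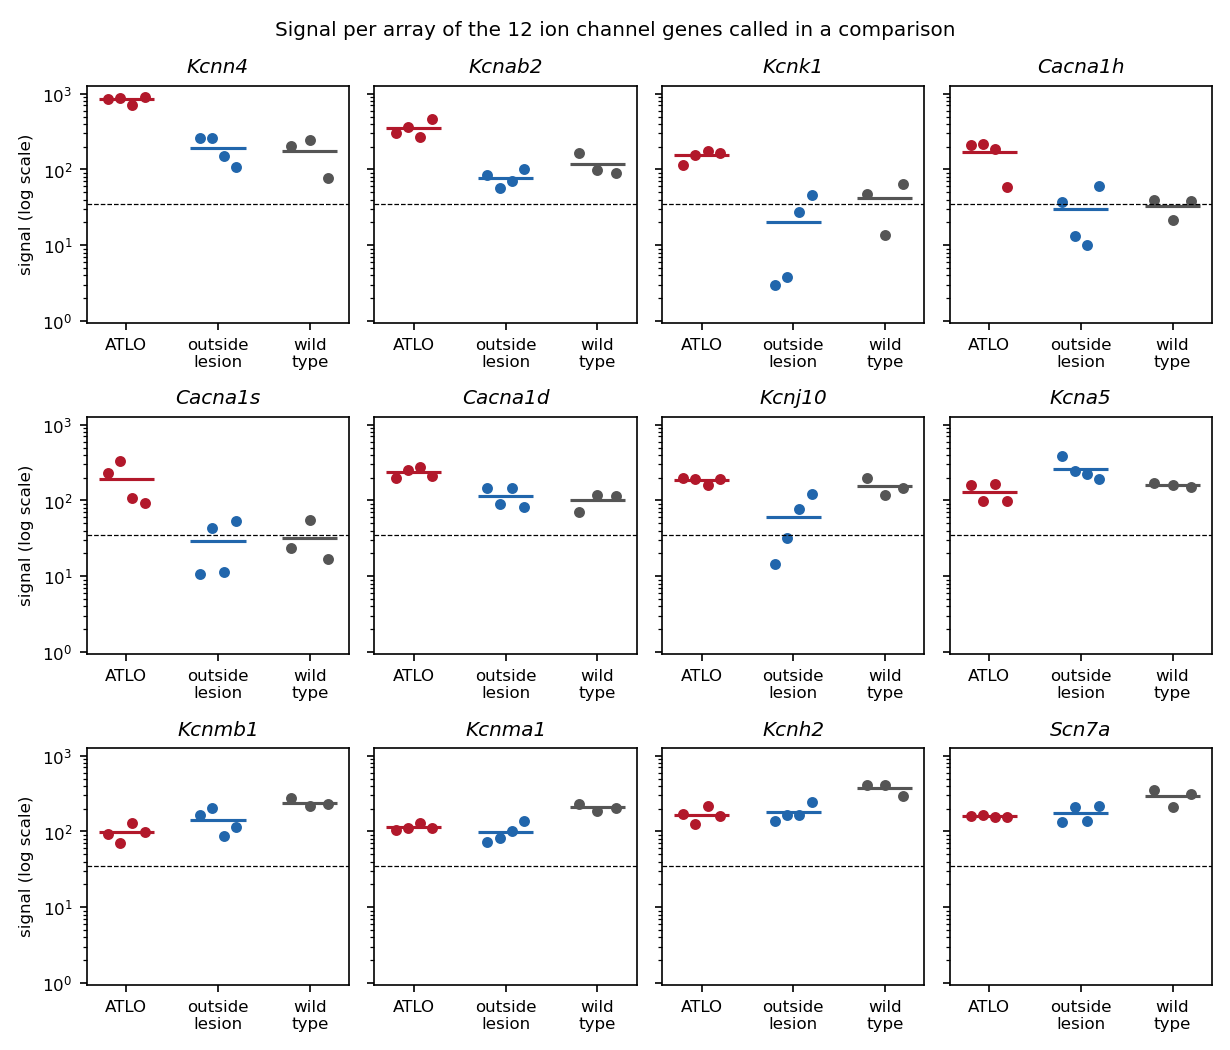
Signal per array (y axis, log scale) of the 12 channel genes called in at least 1 comparison; points are arrays, bars are group means of 4 ATLO, 4 outside-lesion and 3 wild-type arrays, and the dashed line is the floor of 35.1. Kcnn4, Kcnab2, Kcnk1 and Cacna1s are higher on every ATLO array than on any other array, and Kcnmb1, Kcnma1 and Kcnh2 are highest on the wild-type arrays.

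Of 4 genes listed as immune cell channels, Kcnn4 and Kcnab2 rose in ATLO adventitia, and Kcna3 and Kcnk13 were too dim to be tested. Cacna1f, which is also known from T cells but was not on that list, was tested and was not called, with lower values in ATLO (given with the calcium channels). Kcnn4 encodes the intermediate-conductance calcium-activated potassium channel of lymphocytes and macrophages. Its signal was 859.2, 890.9, 712.3 and 911.4 on the ATLO arrays, 261.4, 259.2, 149.2 and 106.4 outside the lesion, and 202, 242.2 and 78.2 in wild type. All 4 ATLO arrays lay above all 7 others. The log2 change was 2.21 ± 0.35 (SE) against outside-lesion (adjusted p = 3.75e-04, limma) and 2.42 ± 0.38 against wild type (adjusted p = 7.40e-04). A second, dimmer probe set of the gene rose as well, by 1.69 and 2.13 on the log2 scale. It passed the brightness filter on ATLO arrays alone, so it is not independent support. At the brighter probe set, the change between outside-lesion and wild-type adventitia was 0.21 ± 0.38 (adjusted p = 0.771).

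The upstream sequence of Kcnn4 is shown because the gene had the largest fitted rise among channels, on values raised to the floor, which hold down the changes of dimmer genes such as Kcnk1 and Cacna1s. It is the 250 bases before the RefSeq transcript start, chr7:24370013-24370262, plus strand, GRCm38.p6, with each CG in capitals.
Kcnn4: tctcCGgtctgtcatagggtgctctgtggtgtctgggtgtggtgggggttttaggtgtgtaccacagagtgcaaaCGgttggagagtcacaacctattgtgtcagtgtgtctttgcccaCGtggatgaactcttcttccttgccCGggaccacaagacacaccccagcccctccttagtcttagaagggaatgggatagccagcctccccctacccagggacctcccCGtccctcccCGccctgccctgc
It holds 6 CG pairs, the median of the 32851 upstream windows in the table, and 1 match to GGGCGG (searched on both strands; a match always holds a CG). That motif is in 32.7% of all windows of this length and in 43.7% of the 103 windows of 75 channel genes found in the table. A match is a run of letters and not a measured binding site.

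Kcnab2 encodes a cytoplasmic beta subunit of voltage-gated potassium channels, present in brain and in lymphocytes. It was read at 300.9, 362.8, 270.5 and 457.2 in ATLO, 83.8, 56.9, 69.6 and 100.5 outside the lesion, and 165.9, 97.9 and 88.5 in wild type. ATLO arrays did not overlap with the others. The log2 change was 2.17 ± 0.28 against outside-lesion (adjusted p = 8.21e-05) and 1.59 ± 0.30 against wild type (adjusted p = 0.00216) by limma. Its second probe set, with a mean of 9.04, was too dim to be tested. The related Kcnab1, a beta subunit known from vascular smooth muscle and brain, was 180 ± 40.5 (SD, n = 4), 322 ± 225 (n = 4) and 308 ± 30.9 (n = 3) in ATLO, outside-lesion and wild-type adventitia. Its log2 change of -0.54 ± 0.45 between ATLO and outside-lesion did not pass (adjusted p = 0.396). Without outside-lesion array 3, where it read 84.5 against 227.3 to 612.5 on the other 3, it was -1.07 (adjusted p = 0.0205).

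Kcna3, the voltage-gated channel best known from T cells, read 8.9, 66.8, 13.8 and 42.1 in ATLO, 32.1, 37, 18.1 and 3.5 outside the lesion, and 55.1, 4.2 and 29.2 in wild type. The groups overlapped, and most readings were near or below the floor. Kcnk13, a tandem-pore channel of macrophages and microglia, had group means of 125, 62.9 and 60.4 in the same order and was too dim to be tested. Immune cell markers were higher in ATLO, as were Kcnn4 and Kcnab2, and so were fibroblast markers. Of 12 T cell markers on the array, 10 were tested, and 9 were higher in ATLO than outside the lesion and 8 higher than in wild type, with median log2 changes of 2.25 and 2.37 among those tested, against 0.10 and -0.05 over all probe sets tested. Their summed signal was 4332 to 8345 in ATLO, 1015 to 1493 outside the lesion and 1529 to 1952 in wild type, and Cd4 and Trat1 were at the floor on all arrays of the latter groups. For B cells, 8 of 10 markers (9 tested) were higher than outside the lesion and 6 higher than in wild type. For macrophages the counts were 13 and 9 of 16 (all tested), and for plasma cells 6 and 5 of 7 (all tested). Fibroblast markers rose too, with 6 and 4 of 9 (all tested). Over all tested probe sets, 17.9% and 13.4% were higher. The part of these cells in the channel changes was not tested.

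Of 9 voltage-gated calcium channel pore genes, 6 were tested and 3 rose in ATLO against both other groups, where 17.9% and 13.4% of all tested probe sets were higher. Cacna1s and Cacna1h passed the brightness filter on ATLO arrays alone, so the share of tested genes that rose is not read as a result. For 1 of the 3, Cacna1d, both calls were lost when its probe sets were averaged. None was called between outside-lesion and wild-type adventitia (0 by limma, 0 at an unadjusted p under 0.05). Cacna1s, the L-type pore of skeletal muscle, was 231.7, 333.9, 107.7 and 93.9 in ATLO. It was 10.6, 43.4, 11.3 and 52.9 outside the lesion and 23.4, 56 and 16.7 in wild type. ATLO did not overlap with the other groups, each of which had 2 arrays at the floor. The log2 change was 2.03 ± 0.42 against outside-lesion (adjusted p = 0.00254) and 2.03 ± 0.46 against wild type (adjusted p = 0.00595), folds that are understated because low signals were raised to the floor. With the ratio of 3' to 5' actin signal, a measure of RNA quality (1.71 to 8.14 in ATLO, 6.22 to 12 outside the lesion), as a covariate, the change against outside-lesion was 1.37 (adjusted p = 0.0733). Skeletal muscle markers were mixed. Of 13 on the array, 5 were tested, and Myl1 alone was called, lower in ATLO in both comparisons (2 and 1 markers at an unadjusted p under 0.05 in either direction). Of all tested probe sets, 13.9% and 13.4% were lower. Pvalb had a log2 change of 0.95 ± 0.43 against outside-lesion (adjusted p = 0.112), and the untested Tnni2 read 52.9 to 139.6 in ATLO and 2.6 to 43.3 outside the lesion. The summed signal was 710.6, 554.5, 2335 and 773 on ATLO arrays 1 to 4, 995.4 to 1377 outside the lesion and 1134 to 1503 in wild type. All ATLO arrays but array 3 thus lay below every array of the other groups. Cacna1s read highest (333.9) on ATLO array 2, which had the lowest sum. Ryr1, the calcium release channel that Cacna1s opens in skeletal muscle, was too dim to be tested and, like Cacna1s, read higher on every ATLO array than on any other, at 117.3, 130, 83.9 and 103 in ATLO, 7.5, 4.6, 17.7 and 3.2 outside the lesion, and 5.6, 48.9 and 10.5 in wild type. The part of muscle cells in the Cacna1s signal was not tested.

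Cacna1h encodes a low-voltage-activated T-type pore of smooth muscle and sensory neurons. Its signal was 212, 219, 188.8 and 58.9 in ATLO, 37.6, 13.3, 10 and 60 outside the lesion, and 40, 21.8 and 37.9 in wild type. ATLO array 4 read low, at the level of outside-lesion array 4. The log2 change was 1.88 ± 0.43 against outside-lesion (adjusted p = 0.00456, limma) and 2.00 ± 0.46 against wild type (adjusted p = 0.00710). Both are understated, since 2 outside-lesion arrays and 1 wild-type array were at the floor. A second probe set of Cacna1h, too dim to be tested, averaged 41.5, 25.2 and 32.6 in ATLO, outside-lesion and wild-type adventitia. Smooth muscle markers moved the other way, as given below. Cacna1d, an L-type pore of neurons, endocrine cells and the cardiac pacemaker, was 200.6, 256.2, 277.5 and 211.7 in ATLO, 146.5, 89.6, 145.1 and 81.2 outside the lesion, and 70.5, 118.1 and 115.2 in wild type. This probe set gave log2 changes of 1.07 ± 0.27 (adjusted p = 0.00917) and 1.25 ± 0.30 (adjusted p = 0.00797) by limma. A second probe set of Cacna1d disagreed, with 0.02 (adjusted p = 0.978) and -0.94 (adjusted p = 0.106). With both averaged, neither change passed (0.54, adjusted p = 0.199, and 0.15, adjusted p = 0.760).

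The remaining calcium channel genes showed no call. Cacna1c, the main L-type pore of arterial smooth muscle, was too dim to be tested, at 68.4, 91.7, 102.6 and 61.6 in ATLO, 76.7, 110.8, 68.7 and 85.6 outside the lesion, and 118.5, 102.4 and 126.8 in wild type. Cacna1b, the N-type pore of sympathetic nerve endings, lay between 3.4 and 9.4 on all arrays, below the floor. Cacna1a, the P/Q-type pore of nerve endings, averaged 91.1, 94.7 and 103 in ATLO, outside-lesion and wild-type adventitia, Cacna1g, another T-type pore, 61.9, 62.6 and 62.2, and Cacna1f, an L-type pore known from retina and T cells, 70.6, 122 and 153. Cacna1f had a log2 change of -1.0 ± 0.45 against wild type (adjusted p = 0.116), and -1.44 without wild-type array 1 (adjusted p = 0.0463). Cacnb1, the beta subunit of skeletal muscle channels, was 150 ± 11.6 in ATLO (SD, n = 4), 194 ± 8.94 outside the lesion (n = 4) and 188 ± 69.2 in wild type (n = 3). Its change between ATLO and outside-lesion was -0.37 ± 0.24 (adjusted p = 0.265). Cacna2d1, an alpha2delta subunit that brings calcium channels to the membrane, averaged 59.7, 87.6 and 91.5, and the brightest gamma gene, Cacng5, 57.5, 40.2 and 95.9.

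Of 8 genes listed as smooth muscle channels, 5 were tested. In ATLO against outside-lesion, 1 was higher and 1 lower (Cacna1h and Kcna5; background 17.9% higher and 13.9% lower of all tested), in ATLO against wild type 1 was higher and 2 lower (13.4% in each direction), and outside the lesion 1 was lower than in wild type (1.54%). With so few tested, nothing about the list is read from these counts. Kcnmb1 is the beta subunit that makes the large-conductance calcium-activated potassium (BK) channel of smooth muscle sensitive to calcium. It was 93.8, 70.7, 130.7 and 98.1 in ATLO, 166.7, 201.2, 88 and 113.5 outside the lesion, and 275, 213.7 and 233.4 in wild type. All wild-type arrays lay above all Apoe-deficient ones. The log2 change was -1.32 ± 0.31 in ATLO (adjusted p = 0.00803, limma) and -0.82 ± 0.31 outside the lesion (adjusted p = 0.150), each against wild type. A second probe set of Kcnmb1 was too dim to be tested. It averaged 45, 56.8 and 94.9 in ATLO, outside-lesion and wild-type adventitia, and the groups overlapped.

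Kcnma1, the pore of the same BK channel, was 103.6, 111.9, 129.2 and 109.6 in ATLO, 73.1, 82.6, 100.6 and 136 outside the lesion, and 230, 185.3 and 206.3 in wild type. Wild-type arrays were again above all others. The log2 change against wild type was -0.87 ± 0.26 in ATLO (adjusted p = 0.0268) and -1.11 ± 0.26 outside the lesion (adjusted p = 0.0397). These calls are near the threshold. The first was lost without ATLO array 1 or 4 or any 1 of the wild-type arrays (adjusted p up to 0.101). The second was lost under 13 of 23 alternatives. Another probe set of Kcnma1, too dim to be tested, averaged 38.6, 36.9 and 39.7 in ATLO, outside-lesion and wild-type adventitia. Kcnmb4, the neuronal beta subunit of the BK channel, read 267.4, 247.9, 230.1 and 220.7 in ATLO, 62.5, 59.8, 173.1 and 306.3 outside the lesion, and 443.4, 75.1 and 202.1 in wild type. Its change of 1.02 ± 0.55 between ATLO and outside-lesion did not pass (adjusted p = 0.178), and without outside-lesion array 4 it was 1.48 (adjusted p = 0.0493).

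The upstream sequence of Kcnmb1 is shown beside that of Kcnn4 as the called gene with the largest fall. It is chr11:33962763-33963012, plus strand, GRCm38.p6 from RefSeq, with its CG in capitals.
Kcnmb1: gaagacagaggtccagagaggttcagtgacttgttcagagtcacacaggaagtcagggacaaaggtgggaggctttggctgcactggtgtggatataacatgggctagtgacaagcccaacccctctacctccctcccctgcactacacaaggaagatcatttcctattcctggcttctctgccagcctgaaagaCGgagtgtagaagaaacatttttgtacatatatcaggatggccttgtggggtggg
It holds 1 CG pair, where 92.1% of windows hold as many or more, and no GGGCGG. The CArG box, the motif of serum response factor in many smooth muscle promoters, was searched on both strands in its strict form. It was not in this window, nor in any of the 103 windows of channel genes, and it is in 1.47% of all windows.

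Kcna5, a voltage-gated pore of arterial smooth muscle and atrium, was highest outside the lesion, at 389.1, 245.8, 223.1 and 191.9, against 157.9, 99.1, 163.8 and 98.6 in ATLO and 171.6, 160.1 and 151.9 in wild type. It fell by 1.0 on the log2 scale in ATLO against outside-lesion (SE 0.26, adjusted p = 0.0102), with no overlap, and by 0.62 with the actin ratio as a covariate (adjusted p = 0.187). Outside-lesion against wild type did not pass (0.65 ± 0.28, adjusted p = 0.195). Kcnj8, the pore of the ATP-sensitive channel of smooth muscle and pericytes, was 715.5, 364.7, 779 and 775.5 in ATLO, 714.1, 950.7, 325.1 and 438.8 outside the lesion, and 489.3, 696.8 and 644.2 in wild type. Its groups overlapped (log2 change 0.18 ± 0.32, adjusted p = 0.716, between ATLO and outside-lesion). Its sulphonylurea receptor partner Abcc9 had means of 275, 276 and 335 and was not called either. Kcne4, a single-span auxiliary subunit, was 412 ± 130, 333 ± 67.6 and 664 ± 207 (SD; n = 4, 4 and 3) in ATLO, outside-lesion and wild-type adventitia. Its changes against wild type were -0.68 ± 0.27 (adjusted p = 0.0809) and -0.96 ± 0.27 (adjusted p = 0.0707). The first was -0.98 without wild-type array 1 (adjusted p = 0.0257) and -0.88 without ATLO array 4 (adjusted p = 0.0319).

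Of 14 smooth muscle markers, 13 were tested. Of these, 5 were lower in ATLO than outside the lesion and 9 lower than in wild type, against 13.9% and 13.4% of all tested probe sets. None was called between outside-lesion and wild type (0 by limma, 3 at an unadjusted p under 0.05), where 3.26% of all tested were. The summed signal of the smooth muscle markers was 15330 to 38170 in ATLO, 26130 to 82210 outside the lesion and 55970 to 59970 in wild type. Adipocyte marker sums were 40570 to 109200, 189400 to 287500 and 114700 to 145100 in the same order, and outside-lesion array 1, highest in Kcna5, had the highest of them. The match did not hold in the other groups. Wild-type array 3 had the highest sum of its group and the lowest Kcna5 (151.9). In ATLO the sum was highest on array 1 and Kcna5 on array 3 (163.8). The part of these cells in the values of Kcnmb1, Kcnma1 and Kcna5 was not tested.

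**Figure D3:**
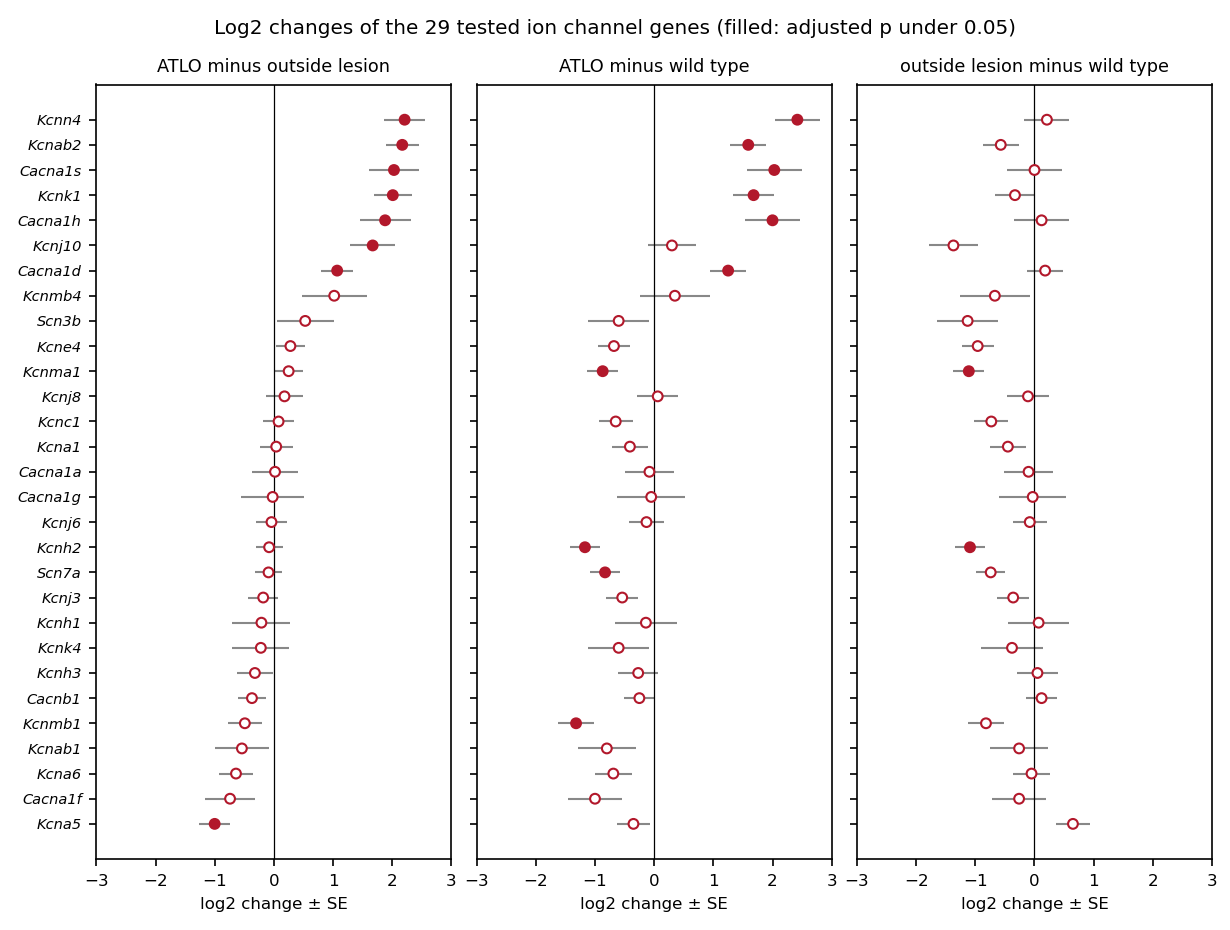
Log2 changes with standard errors (x axes) of the 29 tested channel genes (y axis, ordered by the first panel) in the 3 comparisons, from the fit to all 11 arrays. Filled points passed an adjusted p under 0.05; 7 genes lie higher and Kcna5 lower in the first panel, 6 higher and 4 lower in the second, and Kcnma1 and Kcnh2 lower in the third.

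Of the 24 genes listed as nerve channels, 7 were tested and none was called in any comparison (0 by limma; 1, 2 and 2 at an unadjusted p under 0.05 for ATLO against outside-lesion, ATLO against wild type and outside-lesion against wild type). Of all tested probe sets, 31.9%, 26.8% and 3.26% were called in the same order. With only 7 genes tested, nothing about the list is read from the absence of calls. The count also depends on the list, which leaves out Scn7a, Kcnj10 and Kcnmb4, also known from nerve tissue. Scn7a was called lower in ATLO than in wild type, and Kcnj10 higher in ATLO than outside the lesion. Kcna1, a pore of myelinated axons next to the node of Ranvier, was the brightest on the list. It read 410.1, 465.7, 481.2 and 485.5 in ATLO, 290.9, 348.8, 566.3 and 695 outside the lesion, and 944.7, 569.5 and 422 in wild type. Its groups overlapped, with log2 changes of 0.04 ± 0.28 (adjusted p = 0.929), -0.41 ± 0.31 (adjusted p = 0.344) and -0.45 ± 0.31 (adjusted p = 0.396) in the 3 comparisons. Without wild-type array 1, the changes against wild type were -0.09 and -0.13.

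Scn3b, a sodium channel beta subunit of neurons, read 144.8, 126.3, 248 and 175.8 in ATLO, 97.1, 61, 128.7 and 239.3 outside the lesion, and 666.3, 163.5 and 152 in wild type. The high wild-type mean of 327 ± 294 (SD, n = 3) came from array 1, and the change of outside-lesion against wild type was -1.13 ± 0.52 (adjusted p = 0.217), and -0.44 without that array (adjusted p = 0.635). For ATLO against wild type it was -0.60 ± 0.52 (adjusted p = 0.418, limma), and 0.09 without that array (adjusted p = 0.909). The other tested nerve genes were Kcna6 and Kcnc1, both voltage-gated potassium pores, Kcnj3 and Kcnj6, inward rectifiers opened by G proteins, and Cacna1a. Their group means ran from 76.6 (Kcna6 in ATLO) to 194 (Kcnj3 in wild type). Kcnc1 was highest on wild-type array 2 (215.1) and had log2 changes of -0.65 ± 0.29 and -0.73 ± 0.29 against wild type (adjusted p = 0.110 and 0.160). Kcna2, the usual partner of Kcna1, was too dim to be tested, at 101.5, 19.3, 12.5 and 98.3 in ATLO, 19.2, 54, 63.7 and 65.5 outside the lesion, and 75.3, 43.4 and 22.4 in wild type. The nociceptor sodium channel genes were low as well. Scn10a lay between 1.5 and 28 on all arrays and Scn9a, which is also known from sympathetic neurons, between 2.4 and 64.1.

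Nerve channel signals varied with the array. In 13 of 24 nerve channel genes (54.2%) the highest outside-lesion reading was on array 4, against 23.1% of all probe sets. In 14 of 24 (58.3%) the highest wild-type reading was on array 1, against 34.8% of all probe sets, and in 13 of 24 (54.2%) the highest ATLO reading was on array 4, against 25.0%. These are the arrays with the highest neuron marker sum in each group, on which 18, 20 and 16 of 20 neuron markers also peaked. Among the 69 channel genes outside the nerve list, which include Kcnj10, Scn7a and Kcnmb4, the shares were 33.3%, 50.7% and 29%. The counts are descriptions of 11 arrays and most of these genes were dim. Kcna1 followed the order of the neuron marker sums across the 4 outside-lesion arrays but not in ATLO or wild type. Kcnmb4 followed it across the 3 wild-type arrays. Outside the lesion only arrays 1 and 2, with Kcnmb4 at 62.5 and 59.8, broke that order. In ATLO Kcnmb4 did not follow it and read lowest (220.7) on the array with the highest sum.

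Kcnj10 encodes the inward rectifier of astrocytes and of the satellite cells around peripheral neurons. It was 200.1, 189.6, 160.9 and 194.4 in ATLO, 14.6, 31.5, 76.6 and 122 outside the lesion, and 196, 118.5 and 147.8 in wild type. It was higher in ATLO than outside the lesion without overlap (log2 change 1.67 ± 0.38, adjusted p = 0.00419, and 2.03, adjusted p = 7.36e-04, without outside-lesion array 4), a change understated by 2 outside-lesion arrays at the floor. ATLO against wild type did not pass (0.30 ± 0.41, adjusted p = 0.617). Outside-lesion against wild type did not pass with all arrays (-1.37 ± 0.41, adjusted p = 0.0808). It was -1.73 (adjusted p = 0.047) without outside-lesion array 4, -1.18 (adjusted p = 0.218) without wild-type array 1, and -1.54 (adjusted p = 0.139) without both. Within the outside-lesion and the wild-type group, Kcnj10 took the same order as the neuron marker sums; in ATLO it did not.

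Scn7a, an atypical sodium channel known from Schwann cells and peripheral neurons, was the only pore-forming sodium channel gene bright enough to be tested, out of 8. It read 160.6, 167.3, 155.8 and 153.8 in ATLO, 134.1, 208.6, 139 and 214.5 outside the lesion, and 347.4, 212.3 and 308.9 in wild type. It was lower in ATLO than in wild type (log2 change -0.83 ± 0.25, adjusted p = 0.0238), and this call was lost without wild-type array 1 (-0.68, adjusted p = 0.110), wild-type array 3 (-0.77, adjusted p = 0.0848) or ATLO array 4 (-0.81, adjusted p = 0.0506). Of 9 Schwann cell markers, 1 was higher and 1 lower in ATLO than outside the lesion, against 17.9% and 13.9% of all tested probe sets. None was called in ATLO or outside the lesion against wild type (0 by limma, 3 and 0 at an unadjusted p under 0.05). Of all tested probe sets, 26.8% and 3.26% were called there. The Schwann cell marker sums were 6381 to 9572 in ATLO, 5679 to 11090 outside the lesion and 6803 to 14230 in wild type. They were highest on outside-lesion array 4 and wild-type array 1. The part of nerve content in the values of Kcnj10 and Scn7a was not tested.

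**Figure D4:**
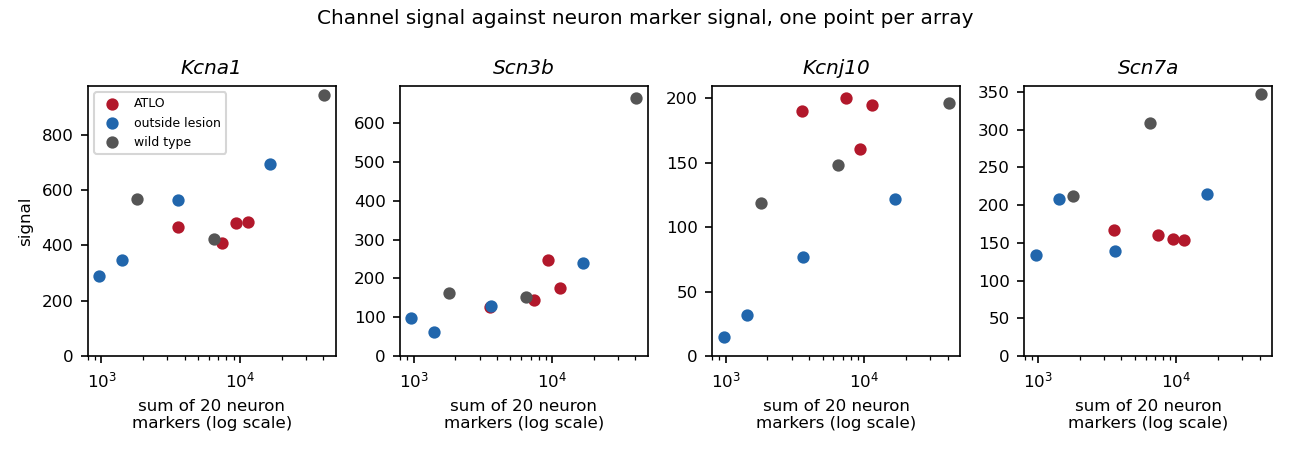
Signal of Kcna1, Scn3b, Kcnj10 and Scn7a (y axes) against the summed signal of 20 neuron markers (x axes, log scale), with 1 point per array and colours for the 3 groups. Wild-type array 1, with a neuron marker sum of 40710, has the highest Kcna1 (944.7), Scn3b (666.3) and Scn7a (347.4) signal of all arrays.

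Further called genes had wider known expression. Kcnk1, a tandem-pore channel that carries a weak potassium leak, was 114.4, 157.3, 175.6 and 167.3 in ATLO, 3, 3.8, 27.6 and 45.9 outside the lesion, and 47.5, 13.8 and 63.6 in wild type. ATLO arrays did not overlap with the others. The log2 change was 2.01 ± 0.32 against outside-lesion (adjusted p = 3.37e-04) and 1.68 ± 0.34 against wild type (adjusted p = 0.00345) by limma, understated because 3 outside-lesion arrays and 1 wild-type array were at the floor. This probe set passed the brightness filter on ATLO arrays alone. Another probe set of Kcnk1, with a mean of 45.3, was too dim to be tested. Kcnh2, the delayed rectifier pore of the heart that is also found in smooth muscle and neurons, was 168.8, 124.3, 215.1 and 161.5 in ATLO, 136, 166.1, 167.1 and 242.7 outside the lesion, and 416.8, 409.2 and 296.7 in wild type. All wild-type arrays were above all Apoe-deficient ones. Against wild type, the log2 change in ATLO was -1.17 ± 0.25 (adjusted p = 0.00486). Outside the lesion it was -1.09 ± 0.25 (adjusted p = 0.0387), a call lost under 13 of 24 alternatives (adjusted p up to 0.142). The other tested potassium pores, Kcnh1, Kcnh3 and Kcnk4, had group means between 71.1 and 169 and no call. Of 32 channel genes with more than 1 probe set, none had probe sets called in opposite directions.

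Genes that work beside these channels were listed separately, 43 of them with a probe set of their own and 28 tested. They include intracellular calcium release channels, store-operated and transient receptor potential channels, chloride channels, ion pumps and the scaffolds of the axon initial segment. In ATLO against outside-lesion, where 17.9% of all tested probe sets were higher and 13.9% lower, 4 of the 28 were higher and 1 lower. The median log2 change of the 28 was 0.21, against 0.10 over all probe sets tested. The higher ones were Hvcn1, the proton channel of phagocytes and B cells (1.27 ± 0.38, adjusted p = 0.0215), Itpr3, an inositol trisphosphate receptor (1.08 ± 0.24, adjusted p = 0.00343), Trpv2, a cation channel of macrophages (0.91 ± 0.24, adjusted p = 0.0101), and Atp2a3, the calcium pump of haematopoietic cells (0.82 ± 0.25, adjusted p = 0.0249). Stim1, the calcium sensor of store-operated entry, was lower (-0.98 ± 0.16, adjusted p = 5.46e-04) and was also the only one called outside the lesion against wild type, where it was higher (0.93 ± 0.18, adjusted p = 0.0225). Its signal was 647 ± 86.7 outside the lesion (SD, n = 4), 328 ± 43.2 in ATLO (n = 4) and 339 ± 45.6 in wild type (n = 3). Between outside-lesion and wild-type adventitia, 3.26% of all tested probe sets were called. In ATLO against wild type, where 13.4% of all tested probe sets were called in each direction, 2 of the 28 were higher and 3 lower. Among them, the muscle calcium release channel Ryr2 was lower (-1.60 ± 0.45, adjusted p = 0.0183) and the endosomal chloride transporter Clcn3 higher (0.77 ± 0.17, adjusted p = 0.00526). Hvcn1, Itpr3, Trpv2 and Atp2a3 were not called in ATLO against wild type (adjusted p = 0.0802, 0.2, 0.0676 and 0.711, limma). Atp2a3 averaged 593 in ATLO, 347 outside the lesion and 555 in wild type.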

How the data were processed

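Signal intensities per probe set were deposited by the authors on a linear scale. Per the submitters' processing notes the tool was GCOS 1.4; the summary method and the genome build are not given in the sources used here. Each array had been scaled to a mean of 500.2 or 500.3 with the highest and lowest 2% of probe sets trimmed. Of 22690 probe sets, 64 were controls and not used. Symbols are those of the platform annotation, and all 134 channel probe sets matched a RefSeq gene with the same symbol.

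Signals below 35.1, the 20th percentile, were set to that floor, then taken to log2, and fitted with a mean per group over all 11 arrays in limma 3.58.1 (R 4.3.3, intensity trend). Probe sets with at least 3 arrays above their own 40th percentile (93.1 to 124) were tested, 14988 in all, with Benjamini-Hochberg adjustment over all of them and a threshold of 0.05; adjusted p-values in the text are from this fit. Errors are SE for log2 changes and SD for signals. Arrays carry no count, so their number limits the precision. The brightest probe set represented a gene. The fit was tested on simulated data.

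Named members were, in each comparison, up to 12 called genes with the largest rise and up to 12 with the largest fall, the brightest gene of each family, and genes listed by name (among them Kcna3, Cacna1c, Kcnj8 and Scn9a). Other genes given values (such as Kcnk13, Kcnab1, Kcnmb4, Cacna1f and the genes beside the channels) were chosen after their values were seen. Members, lists and alternatives were chosen with earlier results of these data known. Same-numbered arrays of different groups did not deviate together in every pair (correlations between -0.178 and 0.273, both from pairs with wild type). Between ATLO and outside-lesion, which share a genotype, all same-numbered pairs were weakly positive (0.142, 0.0749, 0.0397 and 0.153). Their different-numbered pairs ran from -0.198 to 0.152. No label states a pairing, and the number was not used as a block in the main fit. A fit with that block is among the alternatives.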

Additional observations from a re-analysis of the deposited data

Results flagged for a closer look

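Among 76 groups of 4 arrays examined, 1 reading lay far from the rest. Kcnj8, the ATP-sensitive potassium channel pore, read 364.7 on ATLO array 2 against 715.5 to 779 on the other ATLO arrays, a gap of 0.847 of the group's range, above Dixon's critical value for 4 samples. About 1 in 20 groups passes this limit by chance. The same array had the lowest smooth muscle marker sum of all arrays (15330); the part of that in the reading was not tested.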

How the results depend on the processing

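ATLO against outside-lesion gave 9 calls among channel probe sets and 2 under a filter at the 60th percentile, where few members were still tested; leaving out 1 array gave 9 to 10. ATLO against wild type gave 11, 3 under that filter, and 10 to 11 with 1 array left out. Outside-lesion against wild type gave 2 calls and was unstable: 4 with array weights, 1 under the stricter filter, 1 without a filter, and 0 with equal array medians (6 at an unadjusted p under 0.05), with the actin ratio as a covariate (8), with only the groups compared (8) and with a replicate block (10, limma throughout). It also gave 0 (8 unadjusted) without outside-lesion array 4 and wild-type array 1, chosen after seeing the data, and 0 to 3 with 1 array left out. The cause was not tested. The replicate block changed no other count (9 and 11 calls). No called gene changed direction under any alternative run. Of genes called, 5 of 8 (ATLO against outside-lesion), 7 of 10 (ATLO against wild type) and 0 of 2 (outside-lesion against wild type) passed under every alternative in which they were tested. Equal array medians shifted the median log2 change of all probe sets by -0.12, 0.06 and 0.17 in these comparisons, and quantile normalization by -0.09, 0.01 and 0.10. Signals near background limit what can be said of the 64 untested genes: they failed the brightness filter, which does not show that they are absent or unchanged. Cacna1c, for instance, lay above the floor on every array. Kcnd1 read lower on every ATLO array than on any other, without a test.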
